A study of Mus musculus with 8 samples.

Results

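The 37 genes described here encode the machinery of the G2 phase and of mitosis, and were measured in mouse plasmablasts with and without Jagn1, a gene for a membrane protein of the endoplasmic reticulum. They were taken from a fixed list of gene symbols, and all 37 were found among the 24413 symbols of the count files. B220+ splenic B cells of C57BL/6J mice were cultured with LPS, a bacterial stimulus that makes B cells divide and secrete antibody, at 25 µg/ml for 4 days, and CD22-CD138+ plasmablasts were sorted. In the knockout group (4 libraries) the genotype was Jagn1fl/fl Mb1Cre+, that is, floxed Jagn1 alleles with Cre driven by Mb1 (Cd79a), which is active from early B cell development. In the control group (4 libraries) the genotype was Jagn1fl/fl with no Cre listed, so the loss of Jagn1 and the presence of Cre cannot be told apart. Both groups carried the floxed alleles and had the same culture and sort. The series' design text gives 4 mice per genotype.

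A dividing cell switches into mitosis when cyclin B binds and activates the kinase CDK1. Spindle motors and kinases then align the chromosomes, the checkpoint kinases hold the cell until every kinetochore is attached, and the APC/C ubiquitin ligase with its activator CDC20 starts anaphase by marking cyclin B and securin for destruction. The counts are of 3′ end tags, of which a transcript gives about the same number whatever its length, so levels in CPM were not divided by length. Plasmablasts, unlike the resting plasma cells they give rise to, still divide. In bulk RNA, fewer cells in G2 and mitosis and less of each RNA per cell cannot be told apart.

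Library totals ran from 5882912 to 10066661 counts, and control replicate 4 was the deepest. Jagn1 gave 2, 1, 1 and 1 counts in knockout replicates 1 to 4, against 19, 35, 16 and 99 counts in control replicates 1 to 4, so each library had the Jagn1 level its label implies. Cd79a, the locus of the Cre driver, stood at 116, 151, 173 and 151 CPM (the usual unit of counts scaled to library size) in the knockout, against 396, 264, 336 and 220.5 CPM in the control (log2 fold change -1.04, edgeR adjusted p = 0.00313). Among markers of the sorted cell type, 5 of 8 plasma cell genes were lower in the knockout (edgeR adjusted p under 0.05), against 3.19% of all genes tested. The summed level of the 8 ran from 4898 to 7308 CPM in the knockout and from 7723 to 12490.3 CPM in the control. The 8 B cell markers summed to 898 to 966 CPM in the knockout and 916 to 1207 CPM in the control. Of 7 tested 1 was lower, namely Cd79a, the locus of the Cre driver. T cell markers summed to 14.9 to 23.1 CPM in the knockout and 22.9 to 37 CPM in the control. NK cell, macrophage and erythroid markers summed to at most 3.16 CPM in any library, and all 5 neutrophil markers in the files were at 0 in every library. Dendritic cell markers summed to 63.7 to 97.2 CPM in the knockout and 65.6 to 108 CPM in the control, most of it from Xcr1 (71.4 CPM on average in the knockout and 81.1 CPM in the control). The part of these marker differences in the results on mitotic genes was not tested.

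Fitted levels of most mitotic genes were lower in the Jagn1 knockout. Genes of mitotic entry, the spindle, the checkpoint and the chromosomal passenger complex were all among those that passed the test. Of the 37 members, 13 fell and 0 rose at an adjusted p under 0.05 (edgeR quasi-likelihood test, Benjamini-Hochberg over 9904 genes), a share of 35.1% against 3.19% of all genes tested that were lower and 2.54% that were higher. At an unadjusted p under 0.05 there were 27 lower members, against 9.72% of all genes tested, and 0 higher members, and DESeq2 and limma-voom also called 0 higher. Of the 13, Ccnb1 and Ccnb2 are cyclin genes, Plk1, Aurka and Ttk kinase genes, Bub1b a checkpoint gene and Tpx2 a spindle gene. The others were the APC/C activator Cdc20, the passenger complex genes Birc5 and Cdca8, and Mki67, Top2a and Fam64a. The median log2 fold change, knockout over control, was -0.66 over the members and -0.01 over all genes tested, and 36 of 37 fitted values were below 0, against 51.3% of all genes tested. All 4 knockout libraries lay below all 4 control libraries for 16 members, against 6.64% of all genes tested. The count of 13 depended on single libraries, with 2 members called when knockout replicate 2 was left out, 4 when knockout replicate 3 was and 6 when control replicate 3 was. The count over all genes tested, 568 with every library, also shifted with the library left out, as given in the last section. The median stayed between -0.70 and -0.55 under the 20 alternatives. Without control replicates 1 and 4 together, which deviated most from their group (0.594 and 0.581 on the log2 scale, root mean square, against 0.324 to 0.432 in the other libraries), 15 members were called, 11 of them among the 13.

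**Figure D1:**
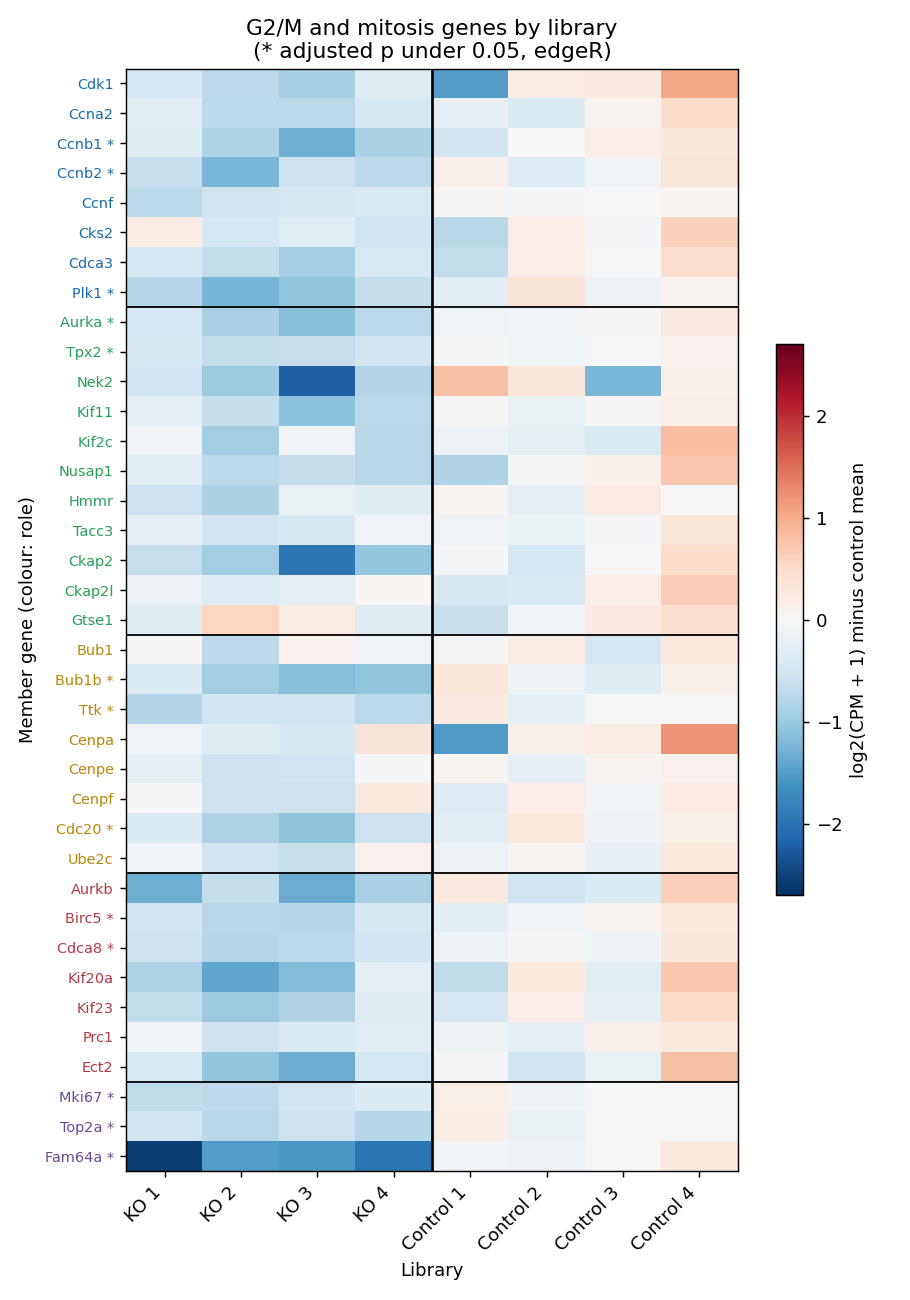
Level of each of the 37 members (rows, coloured by role) in each library (columns, 4 knockout left of 4 control), as log2(CPM + 1) minus the mean of the control libraries; stars mark the 13 members with an adjusted p under 0.05. The knockout columns are mostly blue, and control replicate 1 is blue for Cdk1 and Cenpa but faintly red for Top2a, Mki67, Ttk and Bub1b.

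The promoters of the members share short elements that the choice of genes did not use. Promoters of late cell cycle genes are known for the CHR element (cell cycle genes homology region), bound by complexes that hold the MuvB core, and for CCAAT boxes, bound by NF-Y. RefSeq (GRCm38.p6) gave a window of 250 bases before and 50 after the start for 32 of the 37 members, all but Ccna2, Tpx2, Aurkb, Kif20a and Fam64a. TTTGAA or TTTAAA, on either strand, lay in the windows of 27 of the 32 members (84.4%), against 22.2% of the 8019 tested genes with a window. CCAAT, on either strand, lay in 28 of 32 (87.5%), against 43.8%. Both motifs lay in 25 of 32 (78.1%), against 10.5% of tested genes and 13.4% of all 27025 genes with a window. In 1 member's window the motifs overlapped. Among 124 other mitotic genes with a window 28.2% held both, and among 33 S phase genes 18.2%. Members that fell held both in 10 of 11 windows and the other members in 15 of 21, and the difference was not tested. With the bases before the start alone, 17 of 32 members (53.1%) held both, against 11.2% of all genes with a window. The 130 bases before the start are printed for the 4 members that fell and hold both motifs there, and for Cdk1, which holds both but did not pass the test. Capitals mark TTTGAA or TTTAAA and CCAAT, or their reverse complements (TTCAAA and ATTGG), and sequences run 5′ to 3′ on the strand of the gene.
Plk1 promoter, chr7:122159305-122159434, plus strand: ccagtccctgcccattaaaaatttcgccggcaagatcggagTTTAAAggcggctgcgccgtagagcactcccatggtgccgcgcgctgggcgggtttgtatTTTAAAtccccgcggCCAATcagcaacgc
Ccnb1 promoter, chr13:100786487-100786616, minus strand: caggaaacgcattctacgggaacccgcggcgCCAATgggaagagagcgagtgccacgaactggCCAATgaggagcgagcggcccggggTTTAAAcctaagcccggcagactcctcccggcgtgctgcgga
Cdc20 promoter, chr4:118437344-118437473, minus strand: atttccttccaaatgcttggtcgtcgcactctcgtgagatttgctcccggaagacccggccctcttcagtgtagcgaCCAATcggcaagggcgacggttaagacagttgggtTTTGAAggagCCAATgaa
Top2a promoter, chr11:99024190-99024319, minus strand: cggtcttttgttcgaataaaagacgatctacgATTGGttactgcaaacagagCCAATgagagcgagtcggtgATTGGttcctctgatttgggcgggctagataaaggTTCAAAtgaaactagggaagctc
Cdk1 promoter, chr10:69352913-69353042, minus strand: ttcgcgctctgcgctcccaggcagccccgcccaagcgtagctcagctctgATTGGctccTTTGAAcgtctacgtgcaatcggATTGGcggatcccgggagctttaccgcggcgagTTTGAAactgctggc
In Ccnb1 the CHR letters begin at -42, counted from the start, after CCAAT boxes at -99 and -67, and in Top2a they begin at -23 after 3 CCAAT boxes at -98, -78 and -58. A match is a match of letters, and binding was not measured.

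Among the 8 genes of the cyclin-CDK switch 3 fell and 0 rose (edgeR), against 3.19% and 2.54% of all genes tested. At an unadjusted p under 0.05 also 0 were higher, and the median log2 fold change was -0.75. Plk1 (chr7:122159439-122169873, plus strand, GRCm38, GENCODE M21), the Polo-like kinase that drives mitotic entry and spindle assembly, stood at 196, 139, 159 and 212 CPM in knockout replicates 1 to 4, against 274, 421, 298 and 354 CPM in control replicates 1 to 4. Every knockout value was below every control value. Its log2 fold change was -0.93 ± 0.17 (SE, n = 4 per group), with an edgeR adjusted p of 0.00419, and the call held with each library left out (adjusted p up to 0.0295). Ccnb1 (chr13:100778650-100786570, minus strand) encodes cyclin B1, the main partner of CDK1 in mitosis. It stood at 43.5, 30.1, 21.8 and 29.7 CPM in the knockout, against 38.2, 54.9, 62.1 and 68.0 CPM in the control. The groups overlapped, because knockout replicate 1 was above control replicate 1. The log2 fold change of Ccnb1 was -0.84 ± 0.23 (edgeR adjusted p = 0.0428). Ccnb2 (chr9:70407692-70421547, minus strand), the cyclin B2 gene, stood at 16.4, 10.4, 17.1 and 15.3 CPM in the knockout, against 28.2, 19.8, 24.0 and 32.2 CPM in the control. Its groups did not overlap, and the log2 fold change was -0.82 ± 0.23 (edgeR adjusted p = 0.0490). Both cyclin B calls sat near the threshold: that of Ccnb1 was lost without knockout replicate 2, 3 or 4 or control replicate 2 or 3 (adjusted p up to 0.156), and that of Ccnb2 without any 1 library other than control replicate 2 (up to 0.188). About 304 of the last 500 bases of Ccnb1 transcripts recur in the processed pseudogene Ccnb1-ps, and about 120 bases of Plk1 in Plk-ps1, so the assignment of reads to these genes is uncertain.

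Cdk1, the mitotic kinase itself, had the widest spread of this class. It stood at 143, 119, 104 and 156 CPM in the knockout, against 68.4, 225, 232 and 403 CPM in the control. Control replicate 1 was below all 4 knockout libraries and the other 3 control libraries were above them. The log2 fold change was -0.83 ± 0.37 (edgeR adjusted p = 0.258), and without control replicate 1 it was -1.14 (adjusted p = 0.000700). With each library left out in turn it ran from -1.14 to -0.44, with an edgeR adjusted p up to 0.456. Only the fit without control replicate 1 passed among these. Cdca3, which encodes an F-box-like protein of mitotic entry, averaged 49.9 ± 8.0 CPM in the knockout and 79.4 ± 24.2 CPM in the control (SD, n = 4 each). Its edgeR adjusted p was 0.0903, and 0.00297 without control replicate 1. With another library left out it was up to 0.272. Ccnf, the cyclin F gene of an SCF ubiquitin ligase, had groups that did not overlap, at 6.44 to 8.30 CPM in the knockout and 10.8 to 11.8 CPM in the control, but 231 and 350 summed counts and a log2 fold change of -0.57 ± 0.25 (adjusted p = 0.231, edgeR). Ccna2, the cyclin A2 gene, had a log2 fold change of -0.61 ± 0.23 (adjusted p = 0.158, edgeR), while Cks2, a small CDK-binding subunit, had one of -0.34 ± 0.26 (adjusted p = 0.563).

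**Figure D2:**
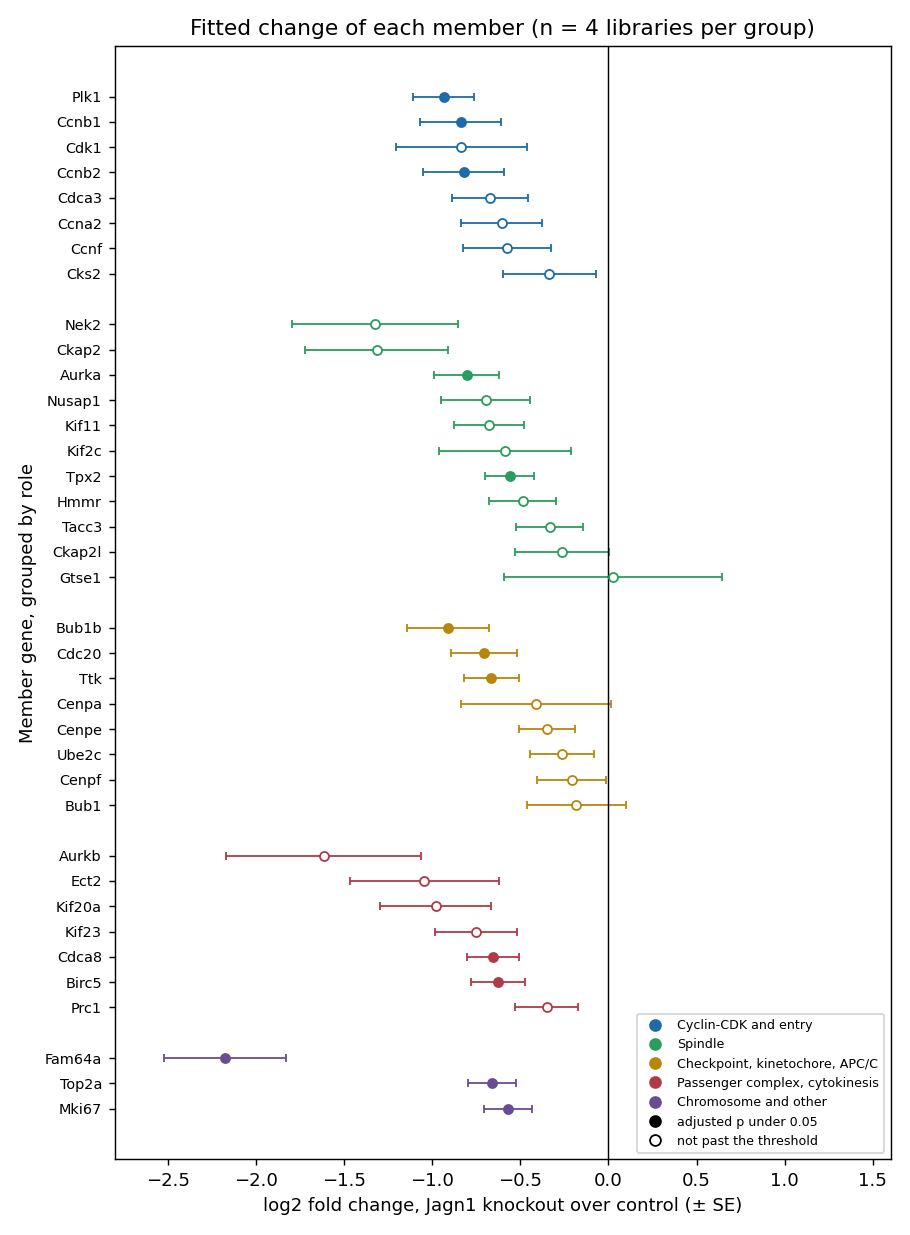
Fitted log2 fold change, knockout over control, with its SE for each of the 37 members, grouped by role from the cyclin-CDK genes at the top to chromosome and other genes at the bottom (n = 4 libraries per group). Filled points passed an adjusted p of 0.05 and lie between -2.17 (Fam64a) and -0.56 (Tpx2), and Gtse1 alone has a fitted value above 0.

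Among the 11 spindle genes 2 fell and 0 rose (edgeR), against 3.19% and 2.54% of all genes tested. At an unadjusted p under 0.05 also 0 were higher, and the median log2 fold change was -0.59. The pair that fell works together, since TPX2 protein binds and activates Aurora A at the spindle. Aurka (chr2:172356190-172370535, minus strand), the Aurora A kinase gene, stood at 46.3, 33.9, 27.9 and 38.2 CPM in the knockout, against 58.4, 60.4, 61.0 and 75.7 CPM in the control. Its log2 fold change was -0.80 ± 0.18 (edgeR adjusted p = 0.0162), with a call lost without knockout replicate 2 or 3 (adjusted p up to 0.0791). Tpx2 (chr2:152847964-152895321, plus strand) stood at 90.4, 77.2, 80.1 and 86.8 CPM in the knockout, against 121, 114, 124 and 134 CPM in the control. Neither gene's groups overlapped. Tpx2 had the tightest groups of the members that fell, with a log2 fold change of -0.56 ± 0.14 (adjusted p = 0.0256, edgeR). Its call was lost without knockout replicate 1, 2 or 3 or control replicate 3 (adjusted p up to 0.124).

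The other 9 spindle genes did not pass. Nusap1, a microtubule-bundling gene and the spindle member of highest mean level, stood at 112, 81.7, 85.9 and 80.2 CPM in the knockout, against 76.7, 130.2, 149 and 226 CPM in the control. As for Cdk1, control replicate 1 was below all 4 knockout libraries, and the adjusted p was 0.136 with all libraries and 0.00252 without that one (edgeR). With another library left out the adjusted p was up to 0.323, and the log2 fold change reached -0.41. The kinesin-5 motor gene Kif11 and the microtubule-binding gene Ckap2 had groups that did not overlap, with log2 fold changes of -0.68 ± 0.20 (edgeR adjusted p = 0.0582) and -1.31 ± 0.41 (adjusted p = 0.0747). Nek2, a centrosome kinase gene, stood at 6.85, 4.74, 1.44 and 5.53 CPM in the knockout, against 18.5, 12.9, 3.76 and 11.4 CPM in the control. The groups overlapped through control replicate 3, and the log2 fold change of -1.32 ± 0.47 had an adjusted p of 0.131 (edgeR). Hmmr, Tacc3, Kif2c and Ckap2l, which act on spindle microtubules, had log2 fold changes from -0.59 to -0.26. Gtse1, a microtubule-tip gene with 52 counts in the knockout and 55 in the control, had a log2 fold change of 0.03 ± 0.62, which was between -0.31 and 0.29 under the alternatives tried.

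Among the 8 genes of the checkpoint, the kinetochore and the APC/C, 3 fell and 0 rose (edgeR), against 3.19% and 2.54% of all genes tested. At an unadjusted p under 0.05 also 0 were higher. The median of -0.38 was the nearest to 0 of the role classes. The members that fell were the checkpoint genes Bub1b and Ttk and the checkpoint target Cdc20. Bub1b (chr2:118598211-118641591, plus strand) encodes BUBR1, a part of the complex that restrains CDC20. It stood at 23.6, 15.5, 13.4 and 14.3 CPM in the knockout, against 38.9, 28.0, 24.4 and 34.2 CPM in the control, with a log2 fold change of -0.91 ± 0.23 (adjusted p = 0.0313, edgeR). Ttk (chr9:83834689-83872389, plus strand), the MPS1 kinase gene that starts checkpoint signalling, stood at 62.0, 74.2, 73.6 and 64.4 CPM in the knockout, against 127, 89.9, 108 and 109 CPM in the control, with a log2 fold change of -0.66 ± 0.15 (adjusted p = 0.0177, edgeR). Cdc20 (chr4:118432901-118437352, minus strand), the APC/C activator gene, stood at 93.2, 67.1, 56.1 and 81.8 CPM in the knockout, against 97.6, 147, 109 and 134 CPM in the control, with a log2 fold change of -0.71 ± 0.19 (adjusted p = 0.0354, edgeR). For these 3 genes the groups did not overlap, although Cdc20 in knockout replicate 1 was close to control replicate 1. Leaving out 1 library ended the call of Bub1b (knockout replicate 2, 3 or 4 or control replicate 2, adjusted p up to 0.123), of Ttk (knockout replicate 1, 2 or 4 or control replicate 3, up to 0.0730) and of Cdc20 (knockout replicate 2, 3 or 4 or control replicate 2 or 3, up to 0.145). Cdc20 shares about 112 of its last 500 bases with the processed pseudogene Gm7856.

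The other 5 genes of this class did not pass and overlapped between groups. Cenpf, a large kinetochore protein gene and the class member of highest mean level, stood at 328, 229.6, 227 and 406 CPM in the knockout, against 268, 385, 325 and 397 CPM in the control. Its highest value was thus in a knockout library, and the log2 fold change was -0.21 ± 0.19 (edgeR adjusted p = 0.643). Ube2c, the ubiquitin-conjugating enzyme that works with the APC/C, averaged 256 ± 64.7 CPM in the knockout and 307 ± 51.2 CPM in the control (SD, n = 4 each), with overlapping groups and a log2 fold change of -0.26 ± 0.18. Bub1, the kinase partner of BUBR1 at the kinetochore, had a log2 fold change of -0.18 ± 0.28, and the kinetochore motor gene Cenpe of -0.35 ± 0.16 (edgeR adjusted p = 0.808 and 0.249). Cenpa, the centromeric histone H3 variant gene, stood at 22.2, 18.8, 17.6 and 30.5 CPM in the knockout, against 7.59, 26.4, 27.4 and 56.3 CPM in the control. Control replicate 1 held the lowest value of all 8 libraries and control replicate 4 the highest, and the log2 fold change of -0.41 ± 0.43 became 0.12 without control replicate 4.

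Among the 7 genes of the chromosomal passenger complex and cytokinesis, 2 fell and 0 rose (edgeR), against 3.19% and 2.54% of all genes tested. At an unadjusted p under 0.05 also 0 were higher, and the median was -0.75 on the log2 scale. The pair that fell encodes survivin and borealin, which anchor Aurora B to the centromere and later to the spindle midzone. Birc5 (chr11:117849251-117855743, plus strand), the survivin gene, stood at 356, 299, 295 and 376 CPM in the knockout, against 411, 476, 539 and 620.2 CPM in the control, with a log2 fold change of -0.63 ± 0.15 (adjusted p = 0.0256, edgeR). Cdca8 (chr4:124918465-124939311, minus strand), the borealin gene, stood at 114, 97.5, 101 and 117 CPM in the knockout, against 153, 164, 153 and 207 CPM in the control, with a log2 fold change of -0.66 ± 0.15 (adjusted p = 0.0151, edgeR). In both genes all 4 knockout libraries were below all 4 control libraries. The call of Birc5 was lost without knockout replicate 1, 2 or 3 or control replicate 2 or 3 (adjusted p up to 0.125), and that of Cdca8 without knockout replicate 2 or 3 (up to 0.0836). Aurkb, the kinase of the same complex, was counted at a low level, at 0.806, 1.87, 0.787 and 1.44 CPM in the knockout, against 4.35, 2.09, 2.51 and 6.04 CPM in the control. These were 37 summed counts in the knockout and 124 in the control, and the log2 fold change of -1.61 ± 0.55 had an edgeR adjusted p of 0.114. Kif20a and Kif23, kinesins of the spindle midzone, had log2 fold changes of -0.98 ± 0.32 and -0.75 ± 0.23 (edgeR adjusted p = 0.0903 and 0.0763). Without control replicate 1 both passed (adjusted p = 0.0112 for each). With another library left out the edgeR adjusted p was up to 0.284 for Kif20a and 0.255 for Kif23. Ect2, the RhoA activator that positions the cleavage furrow, had a log2 fold change of -1.04 ± 0.42, and Prc1, which bundles midzone microtubules, of -0.35 ± 0.18 (edgeR adjusted p = 0.193 and 0.316).

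Mki67, Top2a and Fam64a, which belong to none of these classes, all fell, against 3.19% of all genes tested. In each the groups did not overlap, against 6.64% of all genes tested with the knockout below the control. Top2a (chr11:98992943-99024189, minus strand), the topoisomerase that untangles sister chromatids, had the highest mean level of the 37 members. It stood at 704, 617, 693 and 604 CPM in the knockout, against 1189, 901, 1016 and 1031 CPM in the control, with a log2 fold change of -0.66 ± 0.13 (adjusted p = 0.00747 in edgeR, or 0.0515 without knockout replicate 2). Mki67 (chr7:135689784-135716361, minus strand), the gene of the proliferation marker Ki-67, stood at 319, 315, 355 and 395 CPM in the knockout, against 569, 466, 511 and 508 CPM in the control. Its log2 fold change was -0.57 ± 0.13 (edgeR adjusted p = 0.0196), with a call lost without knockout replicate 1, 2 or 3 or control replicate 3 (up to 0.109). Fam64a (chr11:72042032-72047370, plus strand, now named Pimreg), which encodes a mitotic protein that binds the clathrin adaptor CALM, had the largest fitted fall of the 37 members. It stood at 1.34, 3.88, 3.67 and 2.53 CPM in the knockout, against 12.1, 11.3, 12.7 and 15.5 CPM in the control, from 86 and 406 summed counts. Its log2 fold change was -2.17 ± 0.34 (edgeR adjusted p = 0.00117), and with each library left out it stayed between -2.35 and -1.94 with an adjusted p up to 0.00830. Plk1 and Fam64a were the 2 members whose calls held with each library left out and under the other alternatives.

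**Figure D3:**
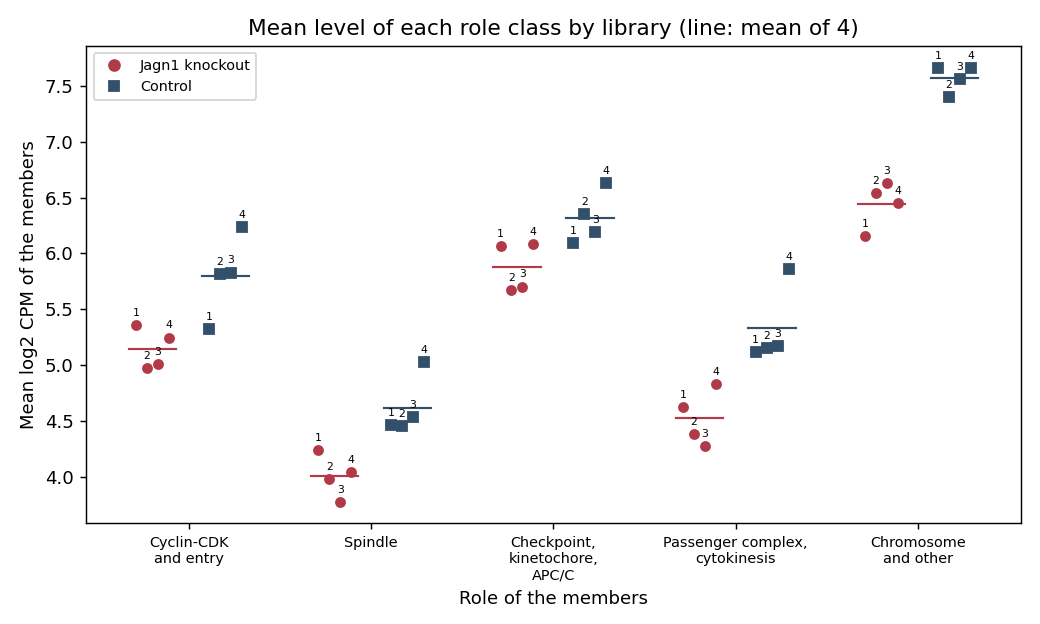
Mean log2 CPM of the members of each role class in each library (numbers are replicates, lines the mean of 4; knockout circles left of control squares). The cyclin-CDK class is the one where the groups overlap, with knockout replicate 1 at 5.36 above control replicate 1 at 5.33, and in the checkpoint class knockout replicate 4 and control replicate 1 both lie at 6.09.

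Set side by side, the role classes differed in how far the groups were apart, and these differences between classes were not tested. The mean log2 CPM of the members in the knockout, minus that in the control, was -0.65 for the cyclin-CDK class and -0.61 for spindle genes. It was -0.43 for the checkpoint, kinetochore and APC/C class and -0.80 for the passenger complex and cytokinesis class. For the class of Mki67, Top2a and Fam64a it was -1.13. In the last class Fam64a had a fitted value of -2.17, against -0.66 for Top2a and -0.57 for Mki67. By summed CPM the order differed. In the same order of classes, the knockout stood at 56.9%, 65.1%, 78.2%, 64.3% and 64.3% of the control. The sums of the cyclin-CDK class overlapped between groups, with knockout replicate 1 at 528 CPM and control replicate 1 at 516 CPM. Those of the checkpoint, kinetochore and APC/C class overlapped too, with knockout replicate 4 at 1072 CPM and control replicate 1 at 967 CPM. Summed over the 37 members, the level was 3186 ± 364 CPM in the knockout and 4804 ± 530.3 CPM in the control (SD, n = 4 each), or 66.3% of the control. Each of the 4 knockout sums, from 2820.0 to 3542 CPM, was below each of the 4 control sums, from 4362 to 5574 CPM.

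The order of the control libraries differed from member to member. Control replicate 4 held the highest control value of 29 of the 37 members and the lowest of 0. Control replicate 1 held the lowest control value of 15 members, among them Cdk1, Ccnb1, Plk1 and Cdc20, yet the highest of 5, namely Nek2, Bub1b, Ttk, Mki67 and Top2a. For 6 members (Cdk1, Cks2, Nusap1, Ckap2l, Gtse1 and Cenpa) control replicate 1 was below all 4 knockout libraries. Leaving control replicate 1 out of the arrangement, all 4 knockout libraries were below the other 3 control libraries for 21 members, against 9.57% of all genes tested. In the knockout group, replicates 1 and 4 each held the highest value of 15 members, and replicates 2 and 3 each the lowest of 15. The coefficient of variation among the control libraries ran from 3.82% (Ccnf) to 68.3% (Cenpa), with a median of 20.6% over the members and 27.4% over all genes tested. Control replicate 4 was also the deepest library, and with all libraries thinned to the smallest total 12 members were called.

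**Figure D4:**
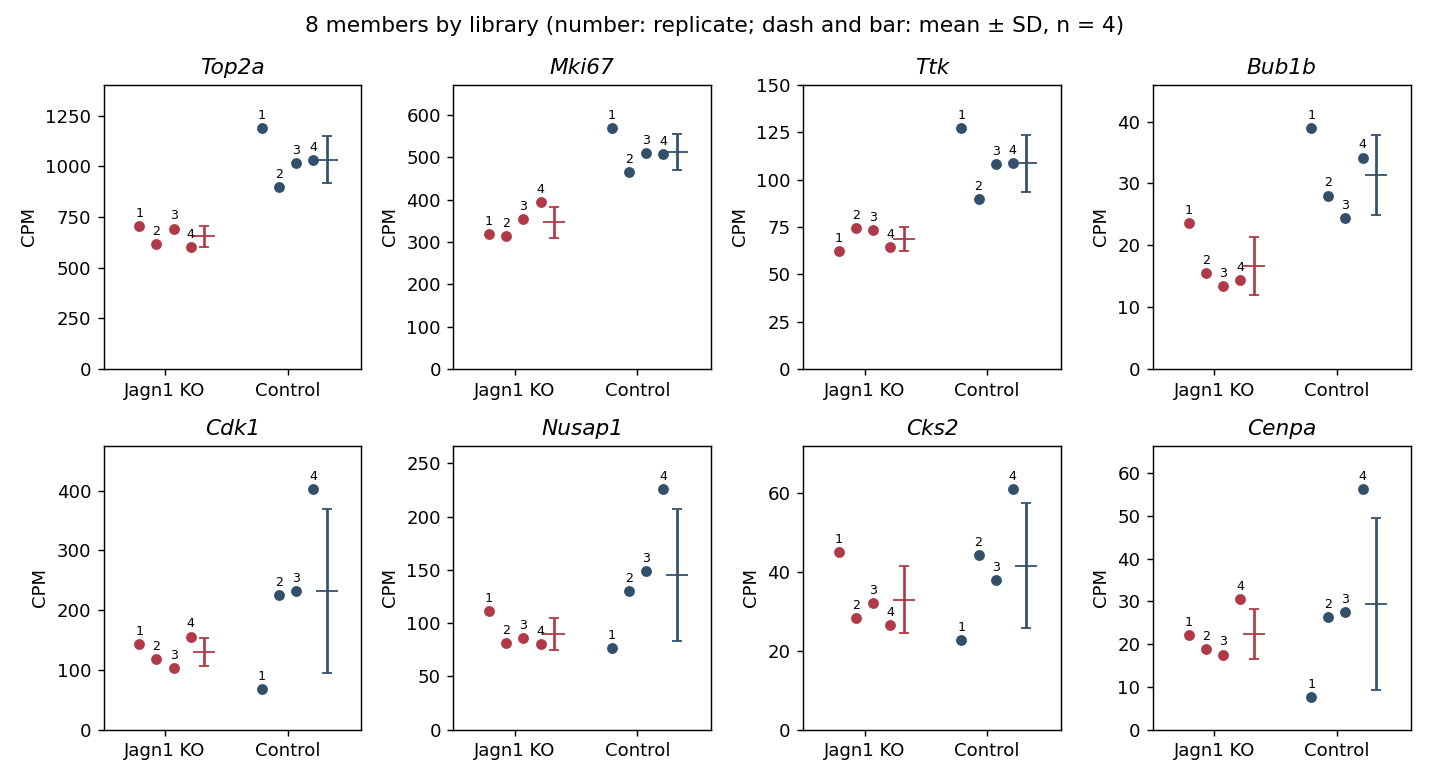
CPM of 8 members in each library (points numbered by replicate; knockout left of control; dash and bar give mean ± SD, n = 4). In the top row (Top2a, Mki67, Ttk, Bub1b) control replicate 1 is the highest library, and in the bottom row (Cdk1, Nusap1, Cks2, Cenpa) it is the lowest.

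Genes of mitosis outside the 37 were described with 7 further lists. Of their 146 tested genes 9 fell and 0 rose in edgeR, against 3.19% of all genes tested that were lower and 2.54% that were higher. Fitted values below 0 numbered 112 of 146, against 51.3% of all genes tested, with medians of -0.24 and -0.01 on the log2 scale. The count that fell was 3 without knockout replicate 1 or 2, 5 without knockout replicate 3 or control replicate 3, and 15 without control replicate 4. An unadjusted p under 0.05 was reached by 2 higher genes, and DESeq2 called 0 higher and limma-voom 1. The largest response was that of Cdc25b, the phosphatase that switches CDK1 on, which averaged 583 ± 136 CPM in the knockout and 1378 ± 114 CPM in the control (SD, n = 4 each), with a log2 fold change of -1.24 ± 0.16 and an edgeR adjusted p of 0.000280 (up to 0.00326 with each library left out). Incenp, the scaffold of the passenger complex that holds survivin, borealin and Aurora B, averaged 211 ± 26.9 CPM in the knockout and 379 ± 91.7 CPM in the control, with a log2 fold change of -0.84 ± 0.17 (adjusted p = 0.00763, edgeR). Single lists held 0 to 3 genes that fell, too few to set a list apart from the 3.19% of all genes tested. In the kinetochore list 3 of 39 fell, namely Ska1 (-0.82), Spc25 (-0.64) and Nuf2 (-0.98), which encode parts of the SKA and NDC80 complexes that grip microtubules. Of 29 motor and centrosome genes the kinesins Kif14 (-0.77) and Kif22 (-0.78) fell, and of 19 condensin and cohesin genes Ncapg2 (-0.86), a condensin II subunit. Of 19 genes of the APC/C, securin and separase 0 passed in edgeR, and Anapc5, a scaffold subunit with the smallest p among them, had a log2 fold change of -0.67 ± 0.19 (adjusted p = 0.0538). The 2 higher genes at an unadjusted p under 0.05 were both among these 19. The calls of Ska1, Incenp and Cdc25b held with each library left out, while those of Spc25, Nuf2, Kif14, Kif22, Ncapg2 and Rbl1 were lost without knockout replicate 1 or 2, among other libraries.

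Genes of factors that control mitotic transcription were measured as well. Foxm1, a forkhead factor that activates G2/M genes, averaged 30.8 ± 6.45 CPM in the knockout and 43.8 ± 5.74 CPM in the control (SD, n = 4 each), and its log2 fold change was -0.51 ± 0.20 (edgeR adjusted p = 0.169). Mybl2, the B-MYB gene whose product joins the MuvB core, had groups that did not overlap, at 46.2 to 57.2 CPM in the knockout and 57.5 to 129 CPM in the control, with a log2 fold change of -0.77 ± 0.22 (adjusted p = 0.0540, edgeR). Rbl1, the p107 pocket protein gene, was the 1 gene of the 14 tested in this list that fell (-0.80 ± 0.21, edgeR adjusted p = 0.0323). Among 42 S phase genes 11 fell in edgeR, against 3.19% of all genes tested (11 in DESeq2 and 13 in limma-voom). None of these tools called any of the 42 higher, 0 were higher at an unadjusted p under 0.05, and the median was -0.52 on the log2 scale. Without knockout replicate 2 there were 5 that fell, and 7 without knockout replicate 1 or 3. The called genes with the smallest p were the helicase subunits Mcm7 (-0.88) and Mcm3 (-0.69) and the DNA ligase Lig1 (-0.83).

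**Figure D5:**
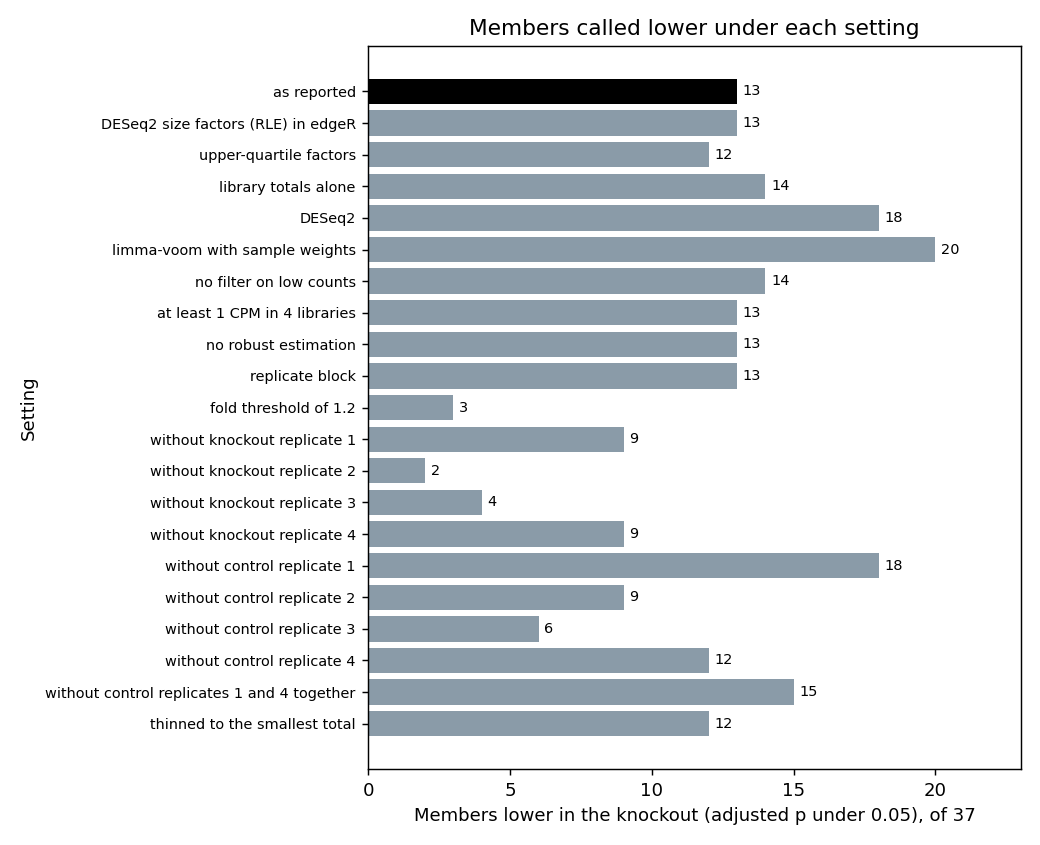
Number of the 37 members lower in the knockout at an adjusted p under 0.05 with the reported fit (black, 13) and under each of 20 alternatives (grey). The count runs from 2 without knockout replicate 2 to 20 with limma-voom and sample weights, and scaling alone leaves it between 12 and 14.

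Gene overlaps limit the reading of some members, because whether counting used strand is not stated in the labels or headers. On the opposite strand Kif20a shares 1271 exon bases with Cdc23, Prc1 911 with Rccd1, Ube2c 592 with Tnnc2 and Ccna2 510 with Exosc9. Among the members that fell, Cdca8 shares 232 exon bases with 9930104L06Rik, Plk1 156 with Gm44985 and Cdc20 53 with Elovl1 on the opposite strand, and Top2a 122 with Gm23451 on the same strand. Cks2 shares about 200 of its last 500 bases with a processed pseudogene and Mki67 about 104. The ends of Cenpf, Kif11, Ube2c and Prc1 contain 31-base words found in transcripts of 411 to 512 other genes, so reads from them may have been placed with less certainty.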

How the data were processed

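RNA of sorted plasmablasts was extracted with Trizol, and libraries were made with the QuantSeq 3′ mRNA-Seq kit (FWD), which reads transcript ends, per the labels' protocols. The deposited files hold raw read counts per gene symbol, per the file headers. The submitters' processing notes name mm10 as the build and, as tools, TopHat2 2.1.1 and BWA 0.7.12 with HTSeq 0.6.1 and SAMtools 1.3.1, without their roles. Aligner and counter settings are not given in the sources here. No molecular identifiers are stated, so counts may include PCR copies and floors cover counting error only. A count of 0 allows up to 0.298 to 0.510 CPM (3 counts over the raw library total, without the scaling used for the other CPM values). No same-group libraries agreed within sampling noise (chi-square per degree of freedom 6.60 to 94.2).

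Genes were filtered with filterByExpr (minimum count 10, minimum total 15), scaled with TMM and tested with edgeR 4.0.16 (R 4.3.3), quasi-likelihood F-test, robust, group as the sole term, two-sided. The SE of a log2 fold change was taken as its size over the square root of F. CPM use TMM-scaled totals. Mean log2 CPM values use a prior count of 2. Promoters were searched for CHR and CCAAT letters on both strands in RefSeq windows. The fit was tested on simulated counts with a common dispersion and no deviating library, unlike the control group here. The members, lists and alternatives were chosen with earlier results of these data known, so no p over a list is given. All members are named. Values in every library are given for members that passed and for the highest of each class, and other genes by the smallest p in each list. Levels in every library of Cdk1, Nek2, Cenpa and Aurkb, and the 8 plotted members, were chosen after their values were seen. Alternatives used DESeq2 1.42.0, limma 3.58.1 (voom), other scalings and filters, a replicate block, a fold threshold of 1.2, thinning and left-out libraries. Protein motifs were not analysed here.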

Additional observations from a re-analysis of the deposited data

Results flagged for a closer look

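In 4 of 86 sets of 4 libraries checked (each member in each group, the role means and the totals), the highest library stood apart from the other 3 by more than Dixon's 95% critical value for 4 values. Chance flags about 1 in 20 such sets. All 4 were in the control group and all were control replicate 4. Aurka stood at 75.7 CPM there, while the other control libraries lay at 58.4 to 61.0 CPM, and Kif2c at 14.3 CPM, against 5.71 to 6.88 CPM. The mean of the spindle genes stood at 5.03 log2 CPM, against 4.45 to 4.53, and that of the cytokinesis genes at 5.86, against 5.12 to 5.17. Control replicate 4 was also the deepest library, at 10066661 counts, and the part of depth in these values was not tested.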

How the results depend on the processing

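Over 20 alternatives the members gave 739 values, of which 644 kept their direction and their side of the threshold, 59 lost a call and 28 gained one. The median of the members stayed between -0.70 and -0.55, and 0 members were called higher under any of them. The 8 values that changed sign were not past the threshold. Gtse1 was at -0.011 with library totals alone, -0.026 without control replicates 1 and 4 together, and between -0.31 and 0.29 with 1 library left out. With 1 library left out Ckap2l ran from -0.41 to 0.014 and Cenpa from -0.73 to 0.12, both highest without control replicate 4. With limma-voom 20 members were called lower, 1054 genes in all, and 19 other mitotic genes lower and 1 higher. DESeq2 called 18 members and 15 other mitotic genes lower, and 815 genes in all. Against a fold change of 1.2 there were 3 members (Plk1, Top2a and Fam64a), 329 genes in all, 3 other mitotic genes and 7 S phase genes. Without control replicates 1 and 4 together 901 genes were called, with 1 other mitotic gene higher. With 1 library left out, counts ran from 2 to 18 for members lower, 270 to 892 for all genes, 3 to 15 for other mitotic genes lower, 0 to 1 for those higher, and 5 to 12 for S phase genes. Fits with libraries left out also had fewer libraries, and the cause of these shifts was not tested. As samples with the same replicate number did not deviate together (correlations -0.00342 to 0.0662), the numbers were not taken to pair them. Of the 4 knockout libraries 2 correlated best with their own number. With the replicate block 13 members were called, 11 of them among the reported 13 (without Ccnb1 and Tpx2, and with Nek2 and Kif20a at adjusted p = 0.0264 and 0.0445), and 509 genes in all. Members with few counts (Aurkb, Gtse1, Ckap2, Ect2, Nek2) had SEs of 0.41 to 0.62.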
